A study of Mus musculus with 22 samples.

Results

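The arrays described here are 4 livers taken while an interferon-gamma response was rising: SOCS1-/-IFNg-/- livers at 1 and 2 h after interferon-gamma, against IFNg-/- livers at the same 2 times. They are 4 of the 22 arrays of a time course, 2 per genotype, and each SOCS1-/-IFNg-/- array was paired with the IFNg-/- array of its time. The comparison asks how alike the genotypes respond while the response is still rising, and which genes already differ between them. Every mouse of the study, control mice included, lacked the gene for interferon-gamma (Ifng); the SOCS1-/-IFNg-/- mice lacked Socs1 as well, and the labels give neither ages nor strain backgrounds.

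Treated mice received 4 µg of recombinant interferon-gamma in 100 µl by intraperitoneal injection, and livers were collected 0.5, 1, 2, 4, 12, 16, 24 or 48 h later. Controls of each genotype were an uninjected liver and livers collected 4 or 12 h after 100 µl of phosphate-buffered saline (PBS). Each genotype and condition had 1 array, the series' own text states that there were no replicates, and whether a sample was 1 mouse or a pool is not said. No PBS liver was taken at 1 or 2 h, so interferon and injection cannot be told apart at these times.

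Interferon-gamma binds a receptor that carries the kinases JAK1 and JAK2. The signal acts through gamma-activated sites (GAS) in promoters and induces a first set of genes, among them the transcription factor Irf1, whose protein binds interferon-stimulated response elements (ISRE) in further genes. SOCS1 is itself induced by this route and blocks JAK activity, which makes it a feedback inhibitor; mice without it die young with an interferon-gamma dependent inflammatory disease of the liver and other organs.

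Promoter windows of 5 genes that the results turn on show where such elements lie. Each window is the RefSeq sequence of assembly GRCm38.p6 from 250 bases before to 50 bases after an annotated start, on the strand of the gene. Capitals mark matches on either strand to TTCNNNGAA (called GAS here) or GAAANNGAAA (called ISRE here), and positions count from the first base printed. Socs1 (chr16:10785487-10785786, minus strand) held overlapping ISRE matches at 168 to 177 and 174 to 183. Irf1 (chr11:53769764-53770063, plus strand, the first of its windows) held a GAS match at 161 to 169. Cxcl10 (chr5:92348840-92349139, minus strand) held an ISRE match at 38 to 47. Gbp2 (chr3:142620413-142620712, plus strand) held an ISRE match at 192 to 201. Ifit3 (chr19:34583279-34583578, plus strand) held ISRE matches at 95 to 104 and 129 to 138.
Socs1: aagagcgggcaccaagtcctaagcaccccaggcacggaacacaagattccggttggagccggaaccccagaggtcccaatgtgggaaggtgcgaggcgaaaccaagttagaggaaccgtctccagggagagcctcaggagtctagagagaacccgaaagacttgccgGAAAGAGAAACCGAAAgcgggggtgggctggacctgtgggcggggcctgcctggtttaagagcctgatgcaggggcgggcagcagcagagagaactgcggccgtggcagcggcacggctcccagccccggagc
Irf1: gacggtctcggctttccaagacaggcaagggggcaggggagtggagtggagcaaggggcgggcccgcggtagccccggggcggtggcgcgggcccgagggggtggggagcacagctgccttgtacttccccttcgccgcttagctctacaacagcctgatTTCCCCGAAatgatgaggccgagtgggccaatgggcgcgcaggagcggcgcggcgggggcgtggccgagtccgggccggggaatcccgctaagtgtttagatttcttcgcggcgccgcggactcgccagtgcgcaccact
Cxcl10: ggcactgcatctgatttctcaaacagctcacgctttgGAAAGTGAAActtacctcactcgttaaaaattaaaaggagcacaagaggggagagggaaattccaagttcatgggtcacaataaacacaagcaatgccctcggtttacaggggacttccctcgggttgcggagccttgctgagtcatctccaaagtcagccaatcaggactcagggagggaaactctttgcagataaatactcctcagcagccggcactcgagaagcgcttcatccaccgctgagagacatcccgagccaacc
Gbp2: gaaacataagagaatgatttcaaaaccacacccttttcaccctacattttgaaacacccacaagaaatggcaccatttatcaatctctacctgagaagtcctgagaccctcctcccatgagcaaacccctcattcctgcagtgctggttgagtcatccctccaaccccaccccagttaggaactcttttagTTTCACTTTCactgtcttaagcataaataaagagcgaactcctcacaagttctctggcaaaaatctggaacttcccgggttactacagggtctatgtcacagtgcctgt
Ifit3: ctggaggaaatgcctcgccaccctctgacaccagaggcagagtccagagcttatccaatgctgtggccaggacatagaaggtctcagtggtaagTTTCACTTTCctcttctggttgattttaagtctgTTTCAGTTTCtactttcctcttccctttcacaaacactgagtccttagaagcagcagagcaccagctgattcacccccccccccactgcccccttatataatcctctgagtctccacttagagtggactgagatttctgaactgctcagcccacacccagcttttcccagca

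Values are log2 expression values on the scale the authors deposited, 1 per gene for 8251 genes, and every difference is a log2 difference with its standard error (SE), so that 1 is a doubling. Array medians lay between 5.64 and 5.71. Over all genes the 1 h arrays of the genotypes were each other's closest match (Pearson r = 0.996), as were the 2 h arrays (r = 0.996), while r ran from 0.966 to 0.996 over all pairs of arrays. Hepatocyte markers were high on all 4 arrays, with Alb at 13.32 and 13.35 in SOCS1-/-IFNg-/- livers and 13.27 and 13.31 in IFNg-/- livers at 1 and 2 h. Among the controls the PBS 12 h arrays stood apart, since some interferon-induced genes were already high on them. Against the other controls of its genotype, Cxcl9 stood 3.99 higher on the SOCS1-/-IFNg-/- PBS 12 h array and 3.46 higher on the IFNg-/- one, and Gbp2 3.13 and 2.03 higher in the same order of genotypes. Irf1 stood only 0.48 and 0.12 higher and Cxcl10 0.38 and 0.03 higher, in that order. The median over 9 interferon-induced GTPases was 1.28 and 0.71. Over all 8251 genes, 7 stood at least 1 higher on both PBS 12 h arrays (0.0848%). Rises are therefore also given without these arrays.

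The deleted genes were examined first. Socs1 (GRCm38.p6, chromosome 16, 10783808 to 10785536) had values of 6.77 at 1 h and 6.74 at 2 h in SOCS1-/-IFNg-/- livers, against 7.37 and 9.21 in IFNg-/- livers. The SOCS1-/-IFNg-/- values lay inside the 6.57 to 7.02 of the other 9 arrays of that genotype. The IFNg-/- values stood above the 6.68 to 6.89 of the other 9 IFNg-/- arrays. Linear levels were thus 1.52-fold lower at 1 h and 5.54-fold lower at 2 h in SOCS1-/-IFNg-/- livers. At 2 h the difference passed the test across all genes (−2.47 ± 0.13 SE, limma adjusted p = 4.82e-05). Each test at 1 or 2 h alone rests on 1 pair of arrays, which is assumed to vary like the pairs of other times, since its SE comes wholly from them (4 residual degrees of freedom). Socs1 was the only gene called there, 1 of 8251 (0.0121%). Set against the difference in the 3 control pairs, Socs1 was again the 1 gene called at 2 h (−2.31 ± 0.16, limma adjusted p = 0.000361; 0.0121% of genes). It was called as well in the 2 h minus the 1 h difference (−1.87 ± 0.19, limma adjusted p = 0.0172; 0.0121%). The call at 2 h held with trend and robust fitting (adjusted p = 0.028). The call against the control pairs did not (0.135), and nor did that of 2 h minus 1 h (0.999), which was also lost without the untreated pair (0.0546), the PBS 4 h pair (0.0519) or the PBS 12 h pair (0.0541). Averaged over 1 and 2 h the Socs1 difference was −1.54 ± 0.30 and was not called (limma adjusted p = 0.656). Which part of the gene the probes cover was not compared with the deletion. Ifng averaged 2.28 over 1 and 2 h in both genotypes, near the lowest value on any array, 1.73.

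**Figure D1:**
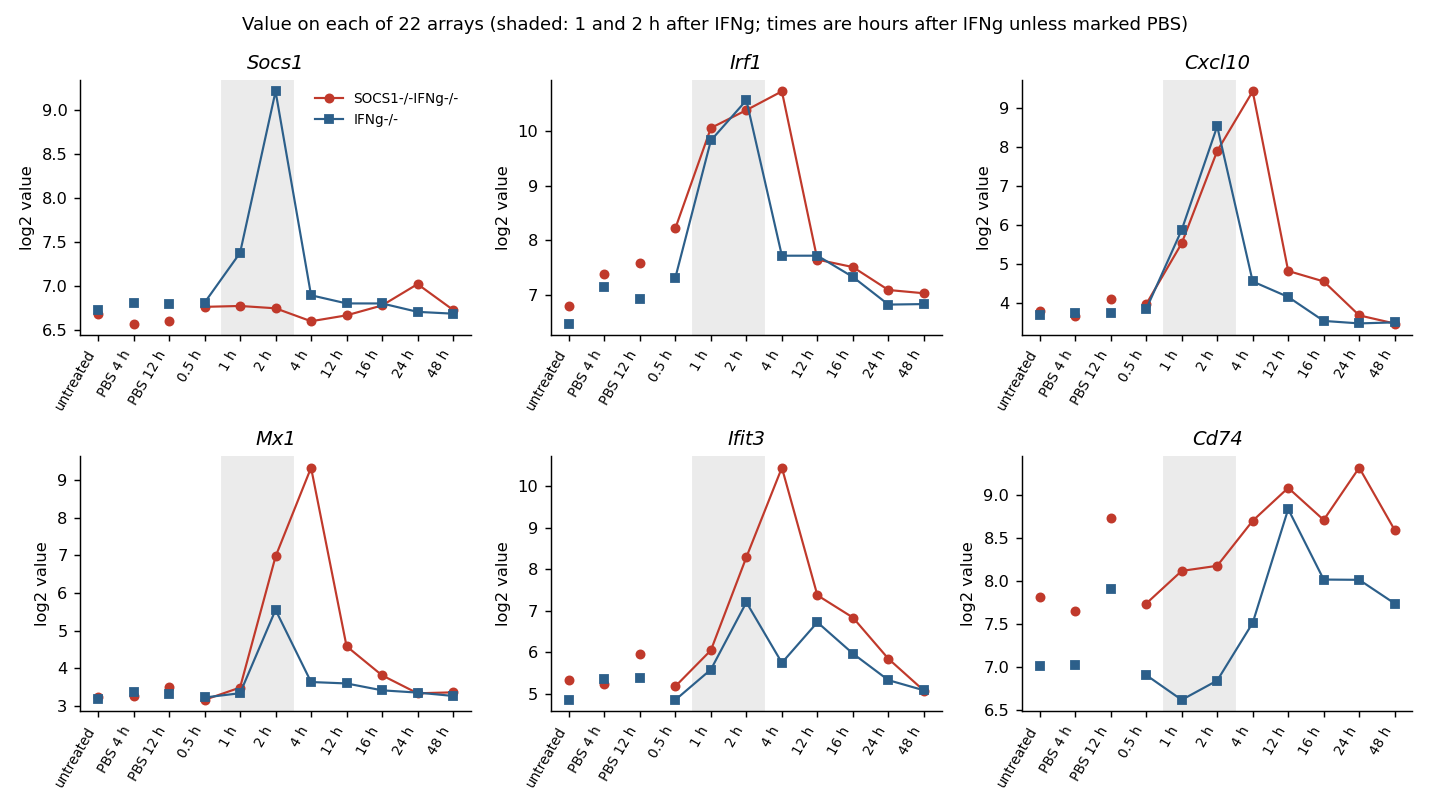
Log2 value (vertical axis) of 6 genes on each of the 22 arrays, by condition along the horizontal axis, with red circles for SOCS1-/-IFNg-/- and blue squares for IFNg-/- and the 1 and 2 h arrays shaded; each point is 1 array, so there are no error bars. At 2 h Socs1 stood at 6.74 and 9.21, while Irf1 stood at 10.38 and 10.56 and Cxcl10 at 7.89 and 8.53 (SOCS1-/-IFNg-/- and IFNg-/-).

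In both genotypes together 75 genes rose by 1 to 2 h and 4 fell (limma, adjusted p under 0.05; 0.909% and 0.0485% of the 8251 genes tested, 0.957% in all). They included chemokines, interferon-induced GTPases, Irf1 and other transcription factors, metallothioneins and feedback inhibitors. Without the PBS 12 h arrays 49 genes were called, 46 of them higher, and 46 of the 49 were among the 79. The count rested on the 2 h arrays, without which 15 genes were called in either direction, and without the 4 h arrays it was 178. Tested within a genotype, where the 1 and 2 h livers stand in for replicates, 20 genes rose in SOCS1-/-IFNg-/- livers (0.242%) and 24 in IFNg-/- livers (0.291%). Of the 75 genes, 18 were called in the test within SOCS1-/-IFNg-/- livers and 24 in the test within IFNg-/- livers, with 17 called in both tests. Without the PBS 12 h arrays the calls in both directions numbered 10 in SOCS1-/-IFNg-/- livers and 14 in IFNg-/- livers, against 22 and 25 with them.

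Irf1, a transcription factor among the first genes induced by interferon-gamma, showed the shared rise most plainly. In SOCS1-/-IFNg-/- livers it stood at 10.06 at 1 h and 10.38 at 2 h, against 6.79, 7.38 and 7.57 in untreated, PBS 4 h and PBS 12 h livers. In IFNg-/- livers it stood at 9.83 and 10.56, against 6.47, 7.14 and 6.92 in the same 3 controls. All 4 interferon arrays lay above all 6 controls, and the genotype that was higher at 1 h was the lower one at 2 h. The rise was 2.97 ± 0.24 in SOCS1-/-IFNg-/- livers (limma adjusted p = 2.77e-05) and 3.35 ± 0.24 in IFNg-/- livers (limma adjusted p = 5.65e-06). The difference between genotypes in level at 1 to 2 h was 0.02, with a 95% interval from −0.24 to 0.29. The rises over controls differed by −0.38 (95% interval −0.73 to −0.03), smaller in SOCS1-/-IFNg-/- livers, and this was not called. At 4 h the genotypes had parted, with Irf1 at 10.73 in the SOCS1-/-IFNg-/- liver and 7.71 in the IFNg-/- liver.

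The CXCR3 ligands Cxcl9 and Cxcl10, which draw T and NK cells, climbed from 1 to 2 h in both genotypes. Cxcl10 stood at 5.52 at 1 h and 7.89 at 2 h in SOCS1-/-IFNg-/- livers, against 3.78, 3.66 and 4.10 in the controls of that genotype. In IFNg-/- livers it stood at 5.87 and 8.53, against 3.68, 3.74 and 3.74. The interferon arrays lay above every control, with the SOCS1-/-IFNg-/- liver the lower of the pair at both times, by −0.34 and −0.63. This genotype difference averaged −0.49 (95% interval −0.76 to −0.21) and was not called (limma adjusted p = 1.00). Cxcl9 stood at 7.35 and 9.93 in SOCS1-/-IFNg-/- livers, against 4.31, 4.33 and 8.31 in its controls. The IFNg-/- values were 7.62 and 10.25, against 4.16, 4.46 and 7.76. At 1 h both Cxcl9 values lay below that of the PBS 12 h array of the same genotype. Without the PBS 12 h arrays the mean rise of Cxcl9 was 4.32 in SOCS1-/-IFNg-/- livers and 4.63 in IFNg-/- livers. With both genotypes together Cxcl10 rose by 3.17 ± 0.56 (limma adjusted p = 0.01) and Cxcl9 by 3.24 ± 0.39 (limma adjusted p = 0.000397). Between the genotypes the rise of Cxcl10 over controls differed by −0.62 (95% interval −0.97 to −0.26), which was not called.

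Of 23 chemokine genes measured 5 rose in both genotypes together (Cxcl1, Cxcl9, Cxcl10, Ccl2 and Ccl7), and 4 without the PBS 12 h arrays. Their median difference between the genotypes was 0.01 at 1 h and −0.02 at 2 h, beside −0.01 and −0.00 over all genes. Ccl2, which recruits monocytes, stood at 5.96 and 6.82 in SOCS1-/-IFNg-/- livers at 1 and 2 h, and at 5.43 and 7.59 in IFNg-/- livers. Its difference turned sign between the times, from 0.53 at 1 h to −0.77 at 2 h. Cxcl1, a neutrophil chemokine, stood at 10.70 and 10.59 in SOCS1-/-IFNg-/- livers and at 10.20 and 10.40 in IFNg-/- livers. The control livers of the genotypes differed more than that: Cxcl1 averaged 8.02 in SOCS1-/-IFNg-/- controls and 6.58 in IFNg-/- controls. Over its own controls Cxcl1 stood 2.57 higher at 2 h in SOCS1-/-IFNg-/- livers and 3.82 higher in IFNg-/- livers.

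Most interferon-induced GTPases, which act on the vacuoles of intracellular pathogens, rose, and their levels at 1 and 2 h lay close between the genotypes. Of 9 measured, 7 rose in both genotypes together, and the same number without the PBS 12 h arrays. Gbp3 (1.29, limma adjusted p = 0.0848) and Gbp2b (−0.14, limma adjusted p = 0.855) did not pass. Gbp2, a guanylate-binding protein, stood at 6.22 and 9.36 in SOCS1-/-IFNg-/- livers at 1 and 2 h, and at 6.25 and 9.73 in IFNg-/- livers. Its controls were 4.66, 4.27 and 7.60 in SOCS1-/-IFNg-/- livers and 4.27, 4.53 and 6.44 in IFNg-/- livers. The 2 h values cleared every control, and the 1 h values cleared all but the PBS 12 h array of each genotype. Igtp, an immunity-related GTPase, stood at 7.58 and 9.14 in SOCS1-/-IFNg-/- livers and at 7.74 and 9.45 in IFNg-/- livers. Irgm1, of the same family, stood at 7.83 and 8.50 in SOCS1-/-IFNg-/- livers and at 7.89 and 8.76 in IFNg-/- livers. In both, as in Gbp2, the SOCS1-/-IFNg-/- liver was slightly the lower of each pair. Over the 9 genes the differences ran from −0.16 to 0.43 at 1 h and from −0.38 to 0.11 at 2 h, with medians of −0.06 and −0.20. SOCS1-/-IFNg-/- livers were higher in 3 of the 9 at either time, beside 3836 of all 8251 genes at 1 h and 4046 at 2 h. In controls the median difference was 0.42. For Igtp the rises over controls differed by −0.90 (95% interval −1.46 to −0.34) and for Irgm1 by −0.59 (−1.06 to −0.11), and neither was called (limma adjusted p = 0.999 for both). The interval of Irgm2 also lay below 0, at a difference of −0.57, and it was not called. At 4 h SOCS1-/-IFNg-/- livers were higher in 8 of 9, with a median difference of 1.89.

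The antiviral genes that type I interferon also induces were, of the 20 pathway lists examined, the one with the largest share of members higher in the SOCS1-/-IFNg-/- liver at 2 h. SOCS1-/-IFNg-/- livers were higher in 10 of the 18 measured genes at 1 h and in 16 at 2 h, beside 3836 and 4046 of all 8251 genes. The median difference was 0.07 at 1 h, 0.29 at 2 h and 1.95 at 4 h. At 2 h 6 of them stood at least 0.5 higher and 0 stood that much lower, beside 49 and 57 of all 8251 genes. At 1 h 0 were 0.5 higher, beside 38 of all genes. None of the 18 was called in a test of the genotypes at 1 or 2 h. Of the 18, 4 were called as rising in both genotypes together (Mx2, Rsad2, Ifi204 and Trim21), and 2 without the PBS 12 h arrays. Some that were not called rose by more than Trim21 (0.66 in SOCS1-/-IFNg-/- and 0.83 in IFNg-/- livers). Among them were Ifit1 (2.29 and 2.32) and Isg15 (1.29 and 1.43). The spread in that fit includes the genotype difference at 4 h, which was 5.05 for Ifit1 and 4.07 for Isg15.

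Mx1, a GTPase that blocks influenza virus, gave the largest difference among them. It stood at 3.48 at 1 h and 6.97 at 2 h in SOCS1-/-IFNg-/- livers, against 3.25, 3.27 and 3.51 in its controls. In IFNg-/- livers it stood at 3.33 and 5.55, against 3.18, 3.36 and 3.32. At 1 h Mx1 was still at control level in both genotypes, and at 2 h both were far above it, with SOCS1-/-IFNg-/- higher by 1.42 ± 0.18 (limma adjusted p = 0.0717). It passed with array weights (adjusted p = 0.037) and without the 12 h or the 16 h pair (0.00682 each), and had an adjusted p of 1.00 with trend and robust fitting, 0.217 without the untreated pair and 0.121 without the PBS 12 h pair. With array weights 3 genes in all were called at 2 h. Set against the control pairs the 2 h difference of Mx1 was 1.37 ± 0.21 (limma adjusted p = 0.22). Ifit3, which binds viral RNA with other Ifit proteins, stood at 6.04 and 8.29 in SOCS1-/-IFNg-/- livers and at 5.58 and 7.20 in IFNg-/- livers. Its 2 h difference of 1.09 ± 0.23 was not called (limma adjusted p = 0.979). Rsad2, the antiviral enzyme viperin, stood at 8.13 and 10.80 in SOCS1-/-IFNg-/- livers and at 7.99 and 10.31 in IFNg-/- livers. Mx2 stood at 7.37 in the SOCS1-/-IFNg-/- liver and 6.53 in the IFNg-/- liver at 2 h, and Ifit1 at 9.30 and 8.74. Both lay well above their controls, none of which exceeded 4.37 for Mx2 or 6.26 for Ifit1.

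At 4 h these genes had separated fully. Mx1 stood at 9.33 in the SOCS1-/-IFNg-/- liver and 3.63 in the IFNg-/- liver, and Ifit3 at 10.45 and 5.74. All 18 antiviral genes were higher in the SOCS1-/-IFNg-/- liver at 4 h.

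**Figure D2:**
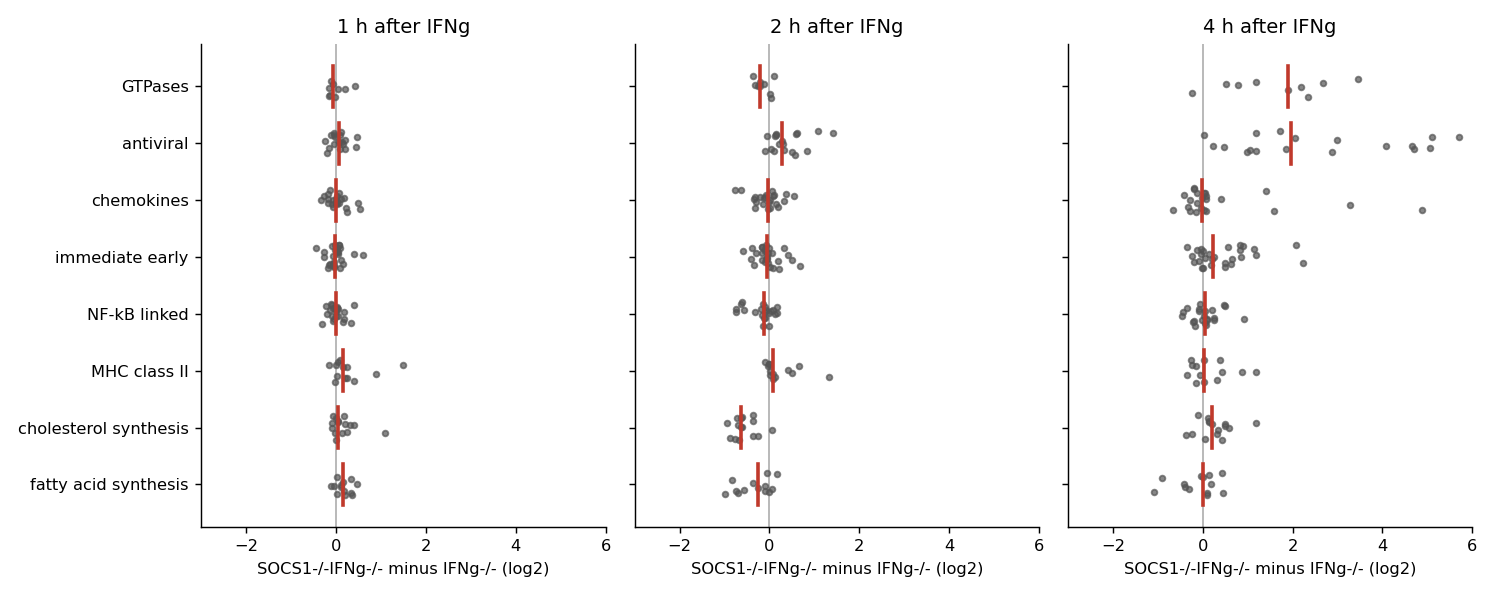
Difference between the genotypes, SOCS1-/-IFNg-/- minus IFNg-/- in log2 units (horizontal axis), for the measured members of 8 gene lists at 1, 2 and 4 h after interferon-gamma; each point is a gene and each red bar the median of its list, with 1 array per genotype and time. The antiviral median was 0.07, 0.29 and 1.95 at 1, 2 and 4 h, and the cholesterol synthesis median was 0.05, −0.64 and 0.20.

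Across the 75 rising genes the rises of the genotypes, each over its own 3 controls, lay close together. The median rise in SOCS1-/-IFNg-/- livers was 0.61 at 1 h and 1.29 at 2 h, and in IFNg-/- livers 0.67 and 1.37. A rise of at least 1 was reached by 20 genes at 1 h and 45 at 2 h in SOCS1-/-IFNg-/- livers, and by 28 and 42 in IFNg-/- livers. The value at 2 h exceeded that at 1 h in 66 of the 75 in SOCS1-/-IFNg-/- livers, in 68 in IFNg-/- livers and in 62 in both. Pearson's r between the genotypes' mean rises was 0.91 across the 75 genes (Spearman's rho 0.93), and 0.72 (rho 0.34) across all 8251. The reduced major axis slope over the 75 was 0.80, SOCS1-/-IFNg-/- on IFNg-/-, and 0.89 without the PBS 12 h arrays, with r = 0.93. Without the 2 h arrays the slope was 1.14 over the genes that then rose, a different set. Over the same 75 genes it was 0.87 at 1 h alone, so its side of 1 depended on the genes taken. At 1 h r over the 75 genes was 0.82 and at 2 h 0.93, and at 4 h it was 0.64. Genes are not independent replicates, and the arrays of a genotype share their controls. The 75 were chosen as high in both genotypes together, which favours agreement. The fit that chose them takes its spread from disagreement between the genotypes over all conditions, 4 h included. Genes on which the genotypes part were thus less likely to be among the 75. Mx1, for example, rose by 1.89 in SOCS1-/-IFNg-/- and 1.16 in IFNg-/- livers and was not called (limma adjusted p = 0.414). Likeness over the 75, here and in the counts and intervals below, is therefore a description only, as is r.

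**Figure D3:**
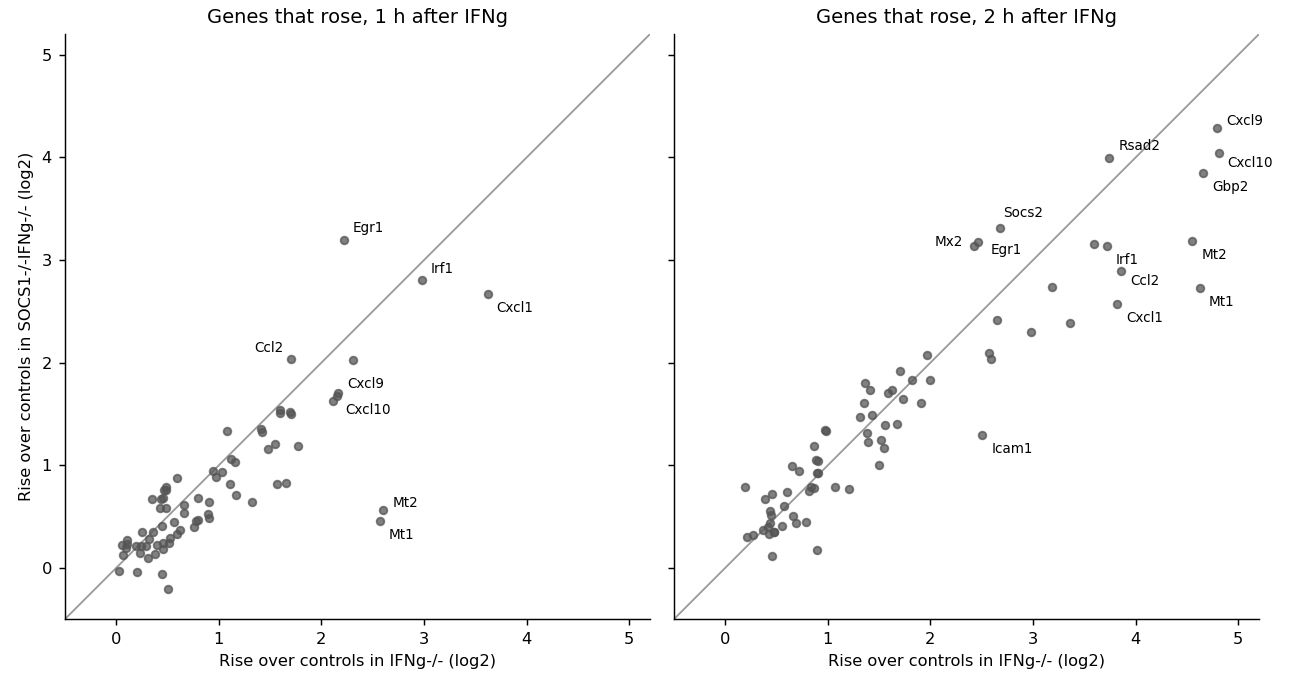
Rise over the mean of the genotype's own 3 control arrays, in log2 units, of the 75 genes called higher in both genotypes together, at 1 h (left) and 2 h (right); the vertical axis is SOCS1-/-IFNg-/-, the horizontal axis IFNg-/-, each point is a gene and the line marks equal rises. The points lie about the line (r = 0.82 at 1 h and 0.93 at 2 h), with Mt1 and Mt2 farthest under it at both times.

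The levels themselves, without controls, differed less. Of the 75 rising genes 29 were higher in the SOCS1-/-IFNg-/- liver at 1 h and 36 were at 2 h, whereas the 4 h pair had 70 and the controls, averaged, 53. The median difference was −0.09 at 1 h, −0.01 at 2 h, 0.92 at 4 h and 0.09 in the controls. Of the 75 genes 5 were apart by at least 0.5 at 1 h, 2 of them higher and 3 lower in SOCS1-/-IFNg-/- livers. At 2 h 6 were, 2 higher and 4 lower, and at 4 h 51 were. Over all 8251 genes 70 (0.848%), 106 (1.28%) and 597 (7.24%) were that far apart at 1, 2 and 4 h. These are smaller shares than among the 75 at each time. The differences spanned −0.83 to 0.59 at 1 h and −0.77 to 0.84 at 2 h, against −0.42 to 5.10 at 4 h. Across the 75 genes the difference at 2 h had a Pearson r of 0.00192 with the one at 4 h.

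The precision bounds how alike the genotypes can be called. For 69 of the 75 genes (92%) the 95% interval of the 1 to 2 h difference lay within 1 of zero, and for 41 within 0.5. With the control difference subtracted, those counts were 64 (85.3%) and 28. Over all genes 99.3% lay within 1, and 98.5% after subtraction, so the rising genes did so less often than genes in general. The median half-width of the interval was 0.29 for the difference and 0.37 after subtraction.

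The metallothioneins Mt1 and Mt2, which bind zinc and copper, were the main exception to the likeness of rises. Mt2 stood at 9.92 and 12.55 at 1 and 2 h in SOCS1-/-IFNg-/- livers, and at 10.11 and 12.06 in IFNg-/- livers. In controls it stood at 7.43, 11.10 and 9.55 in SOCS1-/-IFNg-/- livers (untreated, PBS 4 h and PBS 12 h) and at 7.30, 8.03 and 7.20 in IFNg-/- livers. The interferon arrays of the genotypes were thus close, and the gap lay in the PBS arrays, where SOCS1-/-IFNg-/- livers were 3.07 higher at 4 h and 2.35 higher at 12 h. The rise over controls was 1.88 ± 0.93 in SOCS1-/-IFNg-/- livers and 3.58 ± 0.93 in IFNg-/- livers, and neither was called alone (limma adjusted p = 0.794 and 0.24). Mt1 followed the same course, with PBS differences of 3.07 at 4 h and 2.46 at 12 h.

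Egr1, an immediate early transcription factor, departed the other way. It stood at 9.88 and 9.86 in SOCS1-/-IFNg-/- livers at 1 and 2 h, and at 9.28 and 9.53 in IFNg-/- livers. Its controls were 6.44, 6.50 and 7.09 in SOCS1-/-IFNg-/- livers and 6.68, 8.08 and 6.42 in IFNg-/- livers. No interferon array overlapped a control. The rise was 3.19 ± 0.37 in SOCS1-/-IFNg-/- livers (limma adjusted p = 0.00132) and 2.34 ± 0.37 in IFNg-/- livers (limma adjusted p = 0.0112), and their difference was not called (limma adjusted p = 0.999). The other Egr1 probe set, with a lower mean, gave −0.34 in SOCS1-/-IFNg-/- livers and −0.01 in IFNg-/- livers. Of 28 immediate early genes measured 6 rose (Egr1, Egr2, Junb, Ier3, Zfp36 and Gadd45g), and their median difference was −0.03 at 1 h and −0.06 at 2 h.

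No feedback inhibitor other than Socs1 was called in a test between the genotypes at 1 or 2 h. Of 12 measured, Socs2 and Socs3 rose in both genotypes together. Socs3, which inhibits receptors of the interleukin-6 family, stood at 7.32 and 8.18 in SOCS1-/-IFNg-/- livers and at 6.94 and 7.76 in IFNg-/- livers. Socs2, a regulator of growth hormone signalling, stood at 6.03 and 8.81 in SOCS1-/-IFNg-/- livers and at 6.63 and 8.63 in IFNg-/- livers. Socs3 was higher in SOCS1-/-IFNg-/- livers at both times, by 0.38 and 0.42, and by 0.55 and 0.43 on its other probe set. Socs2 changed order between the times, with differences of −0.60 at 1 h and 0.17 at 2 h. Cish differed by −0.43 and −0.30. Over the 12 genes the median difference was −0.01 at 1 h and −0.04 at 2 h. Of 17 measured JAK-STAT genes and interferon regulatory factors 3 rose (Irf1, Irf8 and Irf9), with median differences of 0.01 and −0.01. Irf8, a factor of the myeloid lineage, stood at 7.12 and 7.72 in SOCS1-/-IFNg-/- livers and at 7.32 and 8.19 in IFNg-/- livers.

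The 4 genes that fell were G0s2, Ccn1, Sdhaf1 and 6430706D22Rik. G0s2, an inhibitor of fat breakdown, stood at 6.44 and 6.49 in SOCS1-/-IFNg-/- livers, against 7.32, 7.52 and 7.81 in its controls. In IFNg-/- livers it stood at 6.19 and 6.33, against 7.59, 7.67 and 7.15. All interferon arrays lay below all controls. The change of G0s2 was −1.09 ± 0.22 in SOCS1-/-IFNg-/- livers (limma adjusted p = 0.0769) and −1.21 ± 0.22 in IFNg-/- livers (limma adjusted p = 0.0321), and it was called in IFNg-/- livers alone.

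Over all genes the 1 and 2 h pairs were the closest of the study. The SD of the difference between genotypes over the 8251 genes was 0.154 at 1 h and 0.166 at 2 h, the lowest of the 11 pairs. The control pairs gave 0.172 to 0.230 and the 4 h pair 0.375. At 1 h 7 genes were apart by at least 1 (0.0848%), at 2 h 15 (0.182%) and at 4 h 149 (1.81%), and the 3 control pairs had 20 to 36. Both pairs set the same 2 genes apart by at least 1 in 1 direction (0.0242%), Cd74 higher and Csad lower in SOCS1-/-IFNg-/- livers. The untreated and PBS 4 h pairs shared 6 such genes (0.0727%), the 12 and 16 h pairs 22 (0.267%) and the 24 and 48 h pairs 1 (0.0121%). At a size of 0.5 the 1 and 2 h pairs shared 12 (0.145%), 4 higher and 8 lower.

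**Figure D4:**
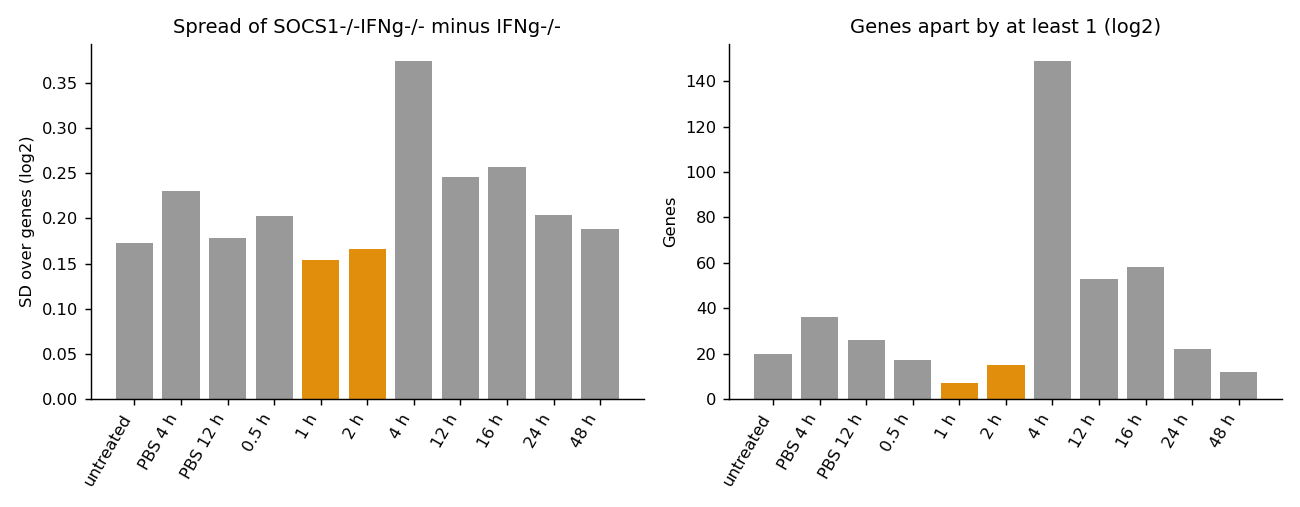
Left, SD over 8251 genes of the log2 difference SOCS1-/-IFNg-/- minus IFNg-/- in each of the 11 pairs of arrays; right, number of genes apart by at least 1 in that pair, with the 1 and 2 h pairs in orange. The 1 and 2 h pairs have SDs of 0.154 and 0.166 and 7 and 15 genes apart, and the 4 h pair has 0.375 and 149.

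Tested over the 1 and 2 h pairs together, 1 of 8251 genes differed between the genotypes (limma on within-pair differences, adjusted p under 0.05; 0.0121%). At an unadjusted p under 0.05 there were 301, and 413 are expected by that threshold alone. The gene was Cd74, the invariant chain that guides MHC class II molecules, which stood at 8.12 and 8.18 in SOCS1-/-IFNg-/- livers and at 6.62 and 6.85 in IFNg-/- livers. The genotypes did not overlap, and Cd74 was higher in the SOCS1-/-IFNg-/- liver of all 11 pairs. The difference was 1.41 ± 0.13 at 1 to 2 h (95% interval 1.14 to 1.69, limma adjusted p = 0.00216). In control livers it was 0.80, 0.63 and 0.83 (untreated, PBS 4 h and PBS 12 h), where Cd74 was called too, 1 of 4 genes (limma adjusted p = 0.0335; 0.0485%, of which 0.0364% lower). The 1 to 2 h difference exceeded that in controls by 0.66 (95% interval 0.30 to 1.02) and this excess was not called (limma adjusted p = 0.999).

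The call of Cd74 depended on the fit. It was lost without the pairing, that is without a block for treatment and time (adjusted p = 1.00), with trend and robust fitting (0.999), and when the 4 h pair was grouped with the 12 and 16 h pairs (0.052). It was lost also without either the 1 h or the 2 h pair, and kept without the PBS 12 h pair (0.00584) and with array weights (0.00083). At 1 h alone limma called 0 genes (230 at an unadjusted p under 0.05), and Cd74 had the smallest adjusted p, 0.0947. At 2 h alone its difference was 1.33 ± 0.18 (limma adjusted p = 0.0856).

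Class II genes next to Cd74 in function went the same way in size. H2-Aa, a class II chain, stood at 7.27 and 7.17 in SOCS1-/-IFNg-/- livers and at 6.38 and 6.50 in IFNg-/- livers. H2-Ab1, its partner chain, stood at 6.56 and 6.57 in SOCS1-/-IFNg-/- livers and at 6.17 and 6.08 in IFNg-/- livers. Both were higher in the SOCS1-/-IFNg-/- liver of all 11 pairs, controls included, and neither was called at 1 to 2 h. Of 13 class II genes measured 0 rose. SOCS1-/-IFNg-/- livers were higher in 11 at 1 h and 9 at 2 h, beside 3836 and 4046 of all 8251 genes. The class II medians were 0.15 and 0.07, beside 0.16 in controls. In bulk liver, more cells of a type and more RNA per cell cannot be told apart. Of 5 measured Kupffer cell and macrophage markers 2 were higher at 1 h and 4 at 2 h, with summed log2 values of 32.7 and 32.5 in SOCS1-/-IFNg-/- livers and 32.9 and 32.0 in IFNg-/- livers. Of 3 B cell markers 2 were higher at 1 h and 1 at 2 h, with sums of 18.13 and 18.09 in SOCS1-/-IFNg-/- livers and 17.99 and 18.09 in IFNg-/- livers. The part of these cells in the class II difference was not tested.

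Csad, an enzyme of taurine synthesis, was with Socs1 the largest difference the other way. It stood at 7.99 and 8.33 at 1 and 2 h in SOCS1-/-IFNg-/- livers, and at 9.69 and 9.63 in IFNg-/- livers. The untreated livers stood at 7.91 and 9.35 and the PBS 4 h livers at 8.18 and 9.29 (SOCS1-/-IFNg-/- and IFNg-/-), so that the gap was present without interferon. The 1 to 2 h difference of −1.50 ± 0.29 was not called (limma adjusted p = 0.656). Postn, the matrix protein periostin, was 0.64 and 0.66 higher in SOCS1-/-IFNg-/- livers at 1 and 2 h (limma adjusted p = 0.167), and passed with array weights (0.0357). Clec16a, 238 kb from Socs1 on chromosome 16, was higher in the SOCS1-/-IFNg-/- liver of all 11 pairs, by 0.38 and 0.22 at 1 and 2 h. That difference of 0.30 (95% interval 0.13 to 0.47) was not called. Whether DNA next to the targeted locus bears on it was not tested.

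**Figure D5:**
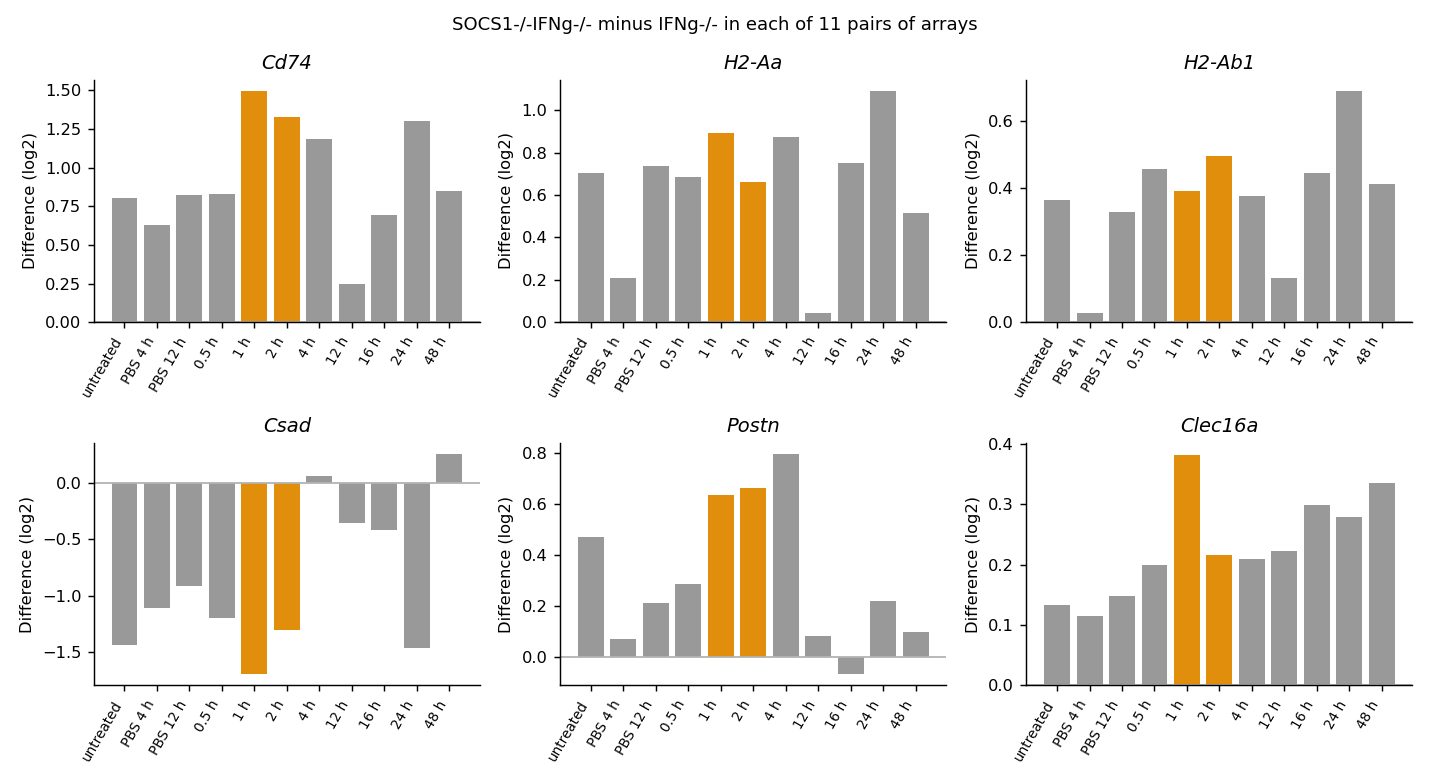
Log2 difference SOCS1-/-IFNg-/- minus IFNg-/- (vertical axis, own scale per gene) in each of the 11 pairs of arrays (horizontal axis) for 6 genes, with the 1 and 2 h pairs in orange and 1 array per genotype and condition. Cd74, H2-Aa, H2-Ab1 and Clec16a are above zero in all 11 pairs; Csad is 1.44 lower in the SOCS1-/-IFNg-/- liver already when untreated.

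The rise itself, the 1 to 2 h difference less that in controls, differed between the genotypes in 0 genes (limma, adjusted p under 0.05; 0% called). At an unadjusted p under 0.05 there were 279, and the smallest adjusted p was 0.999. Without the pairing the count was also 0, with 143 at an unadjusted p under 0.05. The smallest p-values belonged to Tnfaip8l1 (0.70 ± 0.14), Klhl24 (0.56 ± 0.12) and Efna1 (−0.74 ± 0.16), each at a limma adjusted p of 0.999. On simulated data of this size the same contrast recovered 99% of genes changed by 1 and 51% of genes changed by 0.5. At 1 h alone 0 genes were called against controls (246 at an unadjusted p under 0.05), and at 2 h Socs1 alone was.

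NF-kB linked inflammatory genes were level at 1 h and mostly lower in the SOCS1-/-IFNg-/- liver at 2 h. Of 22 measured 4 rose in both genotypes together (Nfkbiz, Il1b, Il6 and Icam1), 3 of 22 without the PBS 12 h arrays. SOCS1-/-IFNg-/- livers were higher in 10 of 22 at 1 h and 5 at 2 h, beside 3836 and 4046 of all 8251 genes. The median difference was −0.00 and −0.11. Icam1, an adhesion molecule for leukocytes, stood at 5.12 and 5.52 in SOCS1-/-IFNg-/- livers and at 4.72 and 6.26 in IFNg-/- livers. Its order turned between 1 and 2 h. Tnfaip3, an inhibitor of NF-kB, stood at 4.04 and 4.19 in SOCS1-/-IFNg-/- livers and at 4.13 and 4.94 in IFNg-/- livers. It left its control range, 3.95 to 4.12, in IFNg-/- livers at 2 h, and stayed inside its range of 3.86 to 4.25 in SOCS1-/-IFNg-/- livers. At 2 h 5 of the 22 were at least 0.5 lower and 0 were that much higher, and none of these differences was called.

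Cholesterol synthesis genes parted between 1 and 2 h in size. Of 15 measured, SOCS1-/-IFNg-/- livers were higher in 9 at 1 h and in 1 at 2 h, with medians of 0.05 and −0.64, beside 0.29 in controls. Over all 8251 genes they were higher in 3836 at 1 h and 4046 at 2 h. Hmgcs1, an early enzyme of the pathway, stood at 9.92 and 8.47 in SOCS1-/-IFNg-/- livers at 1 and 2 h, and at 9.62 and 9.43 in IFNg-/- livers. Idi1, which makes the isoprene unit for sterols, stood at 10.04 and 8.87 in SOCS1-/-IFNg-/- livers and at 9.92 and 9.63 in IFNg-/- livers. Both were below their controls at 2 h only in the SOCS1-/-IFNg-/- liver. At 2 h 10 of the 15 were at least 0.5 lower and none was called. These genes also varied among controls: Hmgcs1 stood at 8.11 in the IFNg-/- PBS 4 h liver and 10.15 in the IFNg-/- PBS 12 h liver. Of 13 fatty acid synthesis genes measured SOCS1-/-IFNg-/- livers were higher in 11 at 1 h and in 2 at 2 h, with medians of 0.16 and −0.26, and 0 were called. Fasn, fatty acid synthase, stood at 9.13 and 7.87 in SOCS1-/-IFNg-/- livers and at 8.79 and 8.70 in IFNg-/- livers.

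In each of the other lists 4 genes at most rose in both genotypes together. Over all genes 0.909% rose, and the median differences were −0.01 at 1 h and −0.00 at 2 h. Of 25 acute phase genes 4 rose in both genotypes together (Mt1, Mt2, Serpina3n and Il1rn; 3 without the PBS 12 h arrays), with median differences of 0.08 and 0.05. Of 17 MHC class I genes Tap1, a peptide transporter, rose, and the medians were 0.00 and −0.03. Of 18 glucocorticoid targets 4 rose, with medians of −0.08 and 0.07. Of 11 growth hormone and STAT5 targets 1 rose, Socs2, with medians of 0.01 and 0.01. No member of the lists for cell death (22 measured), gluconeogenesis (16), bile acids (10), fatty acid oxidation (21), the circadian clock (15) or heat shock and ER stress (21) rose or fell in both genotypes together. Their median differences lay between −0.13 and 0.02 at 1 h and between −0.18 and 0.02 at 2 h.

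The genotypes parted after these times. Setting the 1 to 2 h difference against the 4 h difference called 204 genes (limma, adjusted p under 0.05; 2.47%), 182 of them with the lower difference at 1 to 2 h (2.21%) and 22 with the higher (0.267%). The largest in size were Cxcl10 (−5.37), Mx1 (−4.92), Ifit1 (−4.79) and Rsad2 (−4.78). The 4 h pair is 1 pair of arrays, assumed here to vary like the other pairs, and without the 1 h pair the count was 103 and without the 2 h pair 116. Against the 12 and 16 h pairs 21 genes were called (0.255%), 13 higher and 8 lower at 1 to 2 h (0.158% and 0.097%), and without either the 1 h or the 2 h pair 2 were.

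Promoter windows were found for 57 of the 75 rising genes and for 6576 of the genes tested. A GAS match lay in 11 of the 57 (19.3%), against 8.5% of the windows of all tested genes, and an ISRE match in 14 (24.6%), against 3.89%. An ISRE match lay in 87.5% of the windows of 8 GTPases, whose 2 h levels were close between the genotypes. It lay in 66.7% of those of 15 antiviral genes, most of which were higher in the SOCS1-/-IFNg-/- liver at 2 h. A match describes the letters of the window, and binding was not measured.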

How the data were processed

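Liver RNA of 22 samples was measured on Affymetrix 3-prime expression arrays, 11 per genotype. Per the labels' protocols, RNA was extracted with Trizol, cleaned with RNeasy and labelled as biotin cRNA. The deposited values are log2 expression, 1 per probe set. The submitters' processing notes name affy, and background correction, normalization and probe summary are steps not given in the sources used here. That the values were already normalized between arrays was inferred from the array medians, 5.64 to 5.71. That the scale is log2 was inferred from its range, 1.73 to 13.5.

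Of 12488 probe sets 66 controls were left out, and of the rest 10833 had 1 gene symbol, 396 several and 1193 none in the platform table. Only those with 1 symbol were used, the probe set of highest mean per gene, which gave 8251 genes. Of the 10833, 10817 matched the RefSeq gene table of GRCm38.p6 by gene identifier and 0 symbols were updated.

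Tests ran lmFit and eBayes of limma 3.58.1 (R 4.3.3), with Benjamini-Hochberg adjustment over 8251 genes and a threshold of 0.05. Rises in both genotypes came from an additive fit of condition and genotype, and rises within a genotype from 12 groups of genotype by phase (controls, 0.5 h, 1 and 2 h, 4 h, 12 and 16 h, 24 and 48 h). The genotype contrasts used the 11 differences within pairs in 6 groups of pairs, or in 7 with 1 and 2 h apart. A pair shares treatment and time by the labels, and no replicate numbers exist. Livers of neighbouring times stand in for replicates, so p-values measure the spread between these arrays, true change between times included, and the number of arrays limits the precision. On simulated data of 8251 genes the 1 to 2 h genotype difference recovered 99% of changes of 1 and 77% of changes of 0.5. The simulation held 100 changed genes of each size, which eases the adjusted threshold, so these rates need not hold for the data.

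The members, lists and tests were chosen with earlier results of these data known. Genes were named by rule: Socs1 and Ifng, 10 fixed genes (Irf1, Cxcl9, Cxcl10, Gbp2, Igtp, Irgm1, Socs3, Socs2, Egr1 and Mt2), the 10 largest rises, up to 12 genes per direction past the threshold or else the 6 of smallest p, genes apart by at least 1 in both pairs, and up to 4 members of each list, those called and then by size. Others, such as H2-Ab1, Clec16a, Ccl7 and the further list members, were chosen after their values were seen. Alternatives were all probe sets averaged, quantile normalization, a mean of at least 6, trend and robust fitting, array weights, no pairing, another grouping of the 4 h pair, no PBS 12 h arrays and leaving out each condition. The 1 h and 2 h differences minus controls, the 2 h minus the 1 h difference, and their alternatives were added after the data were seen.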

Additional observations from a re-analysis of the deposited data

Results flagged for a closer look

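The results given here compare the genotype difference at the rise with that at another time, and the test of that change itself passed the threshold (limma, Benjamini-Hochberg, adjusted p under 0.05). Setting the 1 to 2 h difference against the 4 h difference called 204 genes. Cxcl10 had −5.37, Mx1 −4.92, Ifit1 −4.79 and Rsad2 −4.78 on the log2 scale, so that SOCS1-/-IFNg-/- livers exceeded IFNg-/- livers by that much less at 1 to 2 h than at 4 h. Against the 12 and 16 h pairs 21 genes were called. The largest in size were Car3, a carbonic anhydrase, at 1.98, Gm9706 at −1.70, the GTPase Igtp at −1.67 and Samhd1, which limits nucleotide pools, at −1.50. Without either the 1 h or the 2 h pair that count was 2, and with trend and robust fitting it was 0.

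Set against the control pairs, 1 gene was called at 2 h, Socs1 at −2.31. In the 2 h minus the 1 h difference 1 gene was called as well, Socs1 at −1.87. With trend and robust fitting neither call held (adjusted p = 0.135 and 0.999), and the second was also lost without any 1 of the 3 control pairs (0.0519 to 0.0546). Both contrasts were chosen after the data were seen.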

How the results depend on the processing

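Genes called, both directions together, varied with the settings as follows. For the rise in both genotypes (79 genes) the count was 232 with array weights, 49 at a mean of at least 6, 47 with trend and robust fitting and 49 without the PBS 12 h arrays. For the rise in SOCS1-/-IFNg-/- livers (22) it was 5 at a mean of at least 6 and 10 without the PBS 12 h arrays, and for IFNg-/- livers (25) it was 13 and 14. For the 1 to 2 h genotype difference (1) it was 0 with the 4 h pair grouped with 12 and 16 h, 0 with no replicate block, 0 with trend and robust fitting and 2 with array weights. With no replicate block, that is without the pairing, the difference of the rise stayed at 0. For the 2 h difference (1) it was 3 with array weights. The 1 to 2 h minus 12 to 16 h difference (21) fell to 13 at a mean of at least 6 and to 0 with trend and robust fitting, and the 1 to 2 h minus 4 h difference (204) to 120 at a mean of at least 6. Trend and robust fitting left 0 genes in the 2 h difference minus controls and 0 in the 2 h minus 1 h difference, which was also 0 without the PBS 12 h arrays. Genes apart in both pairs numbered 12 at a size of 0.5, and the slope of rises was 0.876 without the PBS 12 h arrays, with the rising genes called anew.

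Leaving out each condition in turn gave 15 to 178 genes for the rise in both genotypes, 6 to 88 in SOCS1-/-IFNg-/- livers and 13 to 86 in IFNg-/- livers. The lowest and highest counts were 0 to 2 for the 1 to 2 h difference, 0 to 1 for the difference of the rise, 0 to 2 at 1 h, 1 to 3 at 2 h, 0 to 0 at 1 h minus controls, 1 to 2 at 2 h minus controls and 0 to 1 for 2 h minus 1 h. They were 103 to 214 against 4 h and 2 to 23 against 12 and 16 h. Pearson's r of the rises ran from 0.487 to 0.763 over all genes and from 0.838 to 0.930 over rising genes, and the slope from 0.757 to 1.14. No named result changed sign under any alternative; 1253 values of named genes kept their side of the threshold, 326 lost their call and 10 gained one. The cause of these shifts was not tested. Precision is limited by 1 array per genotype and time.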

Other observations

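A pair of heat shock genes stood lower in SOCS1-/-IFNg-/- livers at both times without passing the test. Hspa1b, an inducible Hsp70 chaperone, differed by −0.84 at 1 h and −1.21 at 2 h, and Hsph1, which works with Hsp70, by −0.59 and −1.15. Of 21 heat shock and ER stress genes measured SOCS1-/-IFNg-/- livers were higher in 9 at 1 h and 5 at 2 h, beside 3836 and 4046 of all 8251 genes. Lcn2, an iron-binding acute phase protein, was 1.04 higher at 1 h and 0.82 higher at 2 h, and 1.28 higher in SOCS1-/-IFNg-/- controls.

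Among clock genes, Bhlhe40, a clock repressor, stood at 6.56 and 5.73 in SOCS1-/-IFNg-/- livers at 1 and 2 h, and at 6.56 and 6.76 in IFNg-/- livers. Cry1, another repressor of the clock, stood at 6.38 and 5.74 in SOCS1-/-IFNg-/- livers and at 7.26 and 6.33 in IFNg-/- livers. Of 15 clock genes SOCS1-/-IFNg-/- livers were higher in 8 at 1 h and 1 at 2 h, beside 3836 and 4046 of all 8251 genes, and none was called. The hour of day at which livers were taken is not in the labels, and its part in these values was not tested. The globin gene Hba-a1 stood at 8.96 in the SOCS1-/-IFNg-/- liver and 7.92 in the IFNg-/- liver at 2 h, within the 7.40 to 9.28 of the untreated and PBS livers. These genes were picked after their values were seen.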
